A study of Mus musculus with 40 samples.

Results

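Trem2, Tyrobp, Cd68, Gpnmb, Cst7, Spp1, Lgals3 and Cd9 are 8 genes named for phagocytes at sites of tissue damage. They were taken from the table of normalized counts by their symbols, 8 of the 54307 genes listed, and all 8 were found. They were measured in choroid and retina of 20 mice (40 libraries), 3 days after 6 laser burns were set in each eye to induce choroidal neovascularization (CNV). All mice were on a C57BL/6J background, carried 2 floxed Tgfbr2 alleles and received tamoxifen eye drops at 6 to 7 weeks of age, and both sexes were used. Tgfbr2ΔEC mice in addition carried a heterozygous Cdh5-CreERT2 transgene, whose Cre recombinase is driven by an endothelial promoter, and control mice were littermates without Cre. PLX5622 (PLX), an inhibitor of the CSF1 receptor that depletes mononuclear phagocytes (MP), was fed to 10 mice from the first tamoxifen drop to the end, and the other 10 received control food. Each genotype and diet was thus represented by 5 animals, named control – PLX, Tgfbr2ΔEC – PLX, control + PLX and Tgfbr2ΔEC + PLX. Choroid RNA came from the lesioned centre of the tissue.

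TREM2 is a lipid-sensing receptor at the surface of microglia and macrophages, and it signals through TYROBP (DAP12), an adapter that recruits the kinase SYK. In microglia around damaged neurons and plaques, this pathway is known to accompany a change in state in which lysosomal, lipid-handling and secreted proteins are made in larger amounts. Several genes of that state have other known sources in the eye: GPNMB is a glycoprotein of melanosomes as well as of macrophages, and the tetraspanin CD9 is found in many cell types.

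In choroid, 6 of the 8 genes were lower with PLX over both genotypes, as were 5.06% of all tested genes, and 2 stayed at nearly their full level. In control choroids alone 4 passed, and Cst7 and Lgals3 did not (limma adjusted p = 0.138 and 0.155). Averaged over both genotypes, Trem2 fell to 25.8% (95% interval 20.5 to 32.5%), Tyrobp to 31% (24.6 to 39%), Cd68 to 34.8% (29.2 to 41.4%), Spp1 to 31.6% (25.5 to 39.1%) and Cst7 to 21.2% (12.4 to 36.4%). Lgals3 fell less, to 65.8% (55.3 to 78.4%). Gpnmb was at 93.2% (77.1 to 113%) and Cd9 at 94.4% (86.8 to 103%) of the level without PLX. Each percentage left with PLX, here and below, was turned back from a limma log2 difference, so it differs from a ratio of mean counts. In retina, Trem2 and Tyrobp went to the floor of detection with PLX, Cd68, Cst7 and Spp1 fell, and Gpnmb, Lgals3 and Cd9 did not pass the test. For none of the 8 genes did a genotype difference pass the threshold in either tissue or diet, and of all tested genes at most 1 did in a comparison.

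Each value below is a normalized count, the authors' DESeq2-scaled estimate of reads per gene. The libraries held approximately 21583339 to 28252868 reads in choroid and 20987041 to 30319836 in retina, and 3 reads were worth 2.71 to 3.56 and 2.24 to 3.37 normalized counts. A value at or under 3 reads is called the floor here, which covers counting error only. The floxed gene Tgfbr2 was at 10503 ± 425 (SD, n = 5) in control – PLX and 10176 ± 1077 (SD, n = 5) in Tgfbr2ΔEC – PLX choroids, and at 11155 ± 1530 and 11220 ± 454 with PLX. A difference by genotype was not detectable in this RNA, so the labels of genotype were not checked by it. Among markers of the tissues, 10 neural retina genes summed to 1029970 to 1531850 in retinas and to 4091 to 137562 in choroids. Their sum in choroid was 48660 to 137562 in Tgfbr2ΔEC – PLX and 4091 to 28073 in control – PLX. With PLX it was 8169 to 22116 in Tgfbr2ΔEC mice and 4448 to 133133 in controls, mouse 15 being the highest. With a neural retina score as a covariate, the same number of the 8 genes was called in every comparison of a tissue.

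PLX was checked by 17 markers of mononuclear phagocytes. Their sum was 54734 to 71900 normalized counts in the 10 choroids – PLX and 16331 to 23372 in the 10 choroids + PLX. In retina it was 2626 to 6523 without and 400 to 587 with PLX. In choroid 16 of the 17 markers fell and in retina 17 of 17 (5.06% and 1.08% of all tested genes did), with a median log2 difference of -2.60 and -5.68. Csf1r, the target of PLX, was left at 49.1% (44.3 to 54.4%) in choroid, Cx3cr1 at 9.03% (7.61 to 10.7%), Aif1 at 16% (11.5 to 22.3%) and C1qa at 9.46% (7.64 to 11.7%). Tmem119, a gene of microglia that was at 1567 normalized counts in choroid without PLX, stayed at 1609 with PLX there, while in retina it went from 64.4 to 0.209. Fcrls and Adgre1 were listed at 0 in all 10 retinas with PLX. All 8 markers of perivascular macrophages fell in choroid as well (median -3.31). Of 8 markers of monocytes and recruited macrophages 4 fell, Ccr2 from 2306 to 652. RNA of whole tissue was measured, so fewer cells and less RNA per cell cannot be told apart.

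Trem2 (ENSMUSG00000023992, chromosome 17 of GRCm39, 48653429 to 48661175, plus strand) is protein-coding, like the other 7 genes. In control – PLX choroids it was at 1656, 1411, 1052, 1428 and 1649 normalized counts, and in Tgfbr2ΔEC – PLX choroids at 1695, 1641, 1931, 1873 and 1852. With PLX it was at 342, 903, 481, 512 and 260 in controls and at 323, 440, 335, 316 and 466 in Tgfbr2ΔEC mice. Every choroid with PLX lay below every choroid without PLX, and mouse 12, at 903, came closest. The log2 difference was -1.64 ± 0.23 (SE) in controls and -2.27 ± 0.23 in Tgfbr2ΔEC mice, with adjusted p = 5.7e-05 in controls and 1.71e-08 over both genotypes (limma, Benjamini-Hochberg over 23619 genes). An exact two-sided permutation test of diet within genotype gave p = 3.15e-05, the smallest this design allows.

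Tyrobp (ENSMUSG00000030579, chromosome 7 of GRCm39, 30113170 to 30117010, plus strand) encodes the adapter through which TREM2 signals. Choroids of control – PLX held 2834, 2836, 3043, 2348 and 3316 normalized counts and those of Tgfbr2ΔEC – PLX held 2934, 2344, 2812, 3061 and 2732. With PLX the values were 721, 1863, 1269, 776 and 559 in controls and 914, 961, 853, 606 and 736 in Tgfbr2ΔEC mice. The diets again did not overlap, and mouse 12 was again the highest with PLX. The log2 difference was -1.60 ± 0.23 in controls and -1.78 ± 0.23 in Tgfbr2ΔEC mice (limma adjusted p = 1.46e-07 over both genotypes).

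In retina both genes were low without PLX and at the floor with it. Trem2 was at 85.7, 50.2, 58.5, 54.9 and 115 in control – PLX and at 85.2, 104, 63.6, 41.9 and 44.4 in Tgfbr2ΔEC – PLX retinas. PLX-fed mice held 0.848, 0, 1.11, 0 and 1.06 in controls and 1.25, 5.18, 0, 0 and 0 in Tgfbr2ΔEC mice, so that 9 of 10 retinas were at or under 3 reads. Tyrobp was at 91.9 to 179 in control – PLX and 37.5 to 130 in Tgfbr2ΔEC – PLX retinas, and all 10 retinas with PLX, at 0 to 2.60, were at or under 3 reads. The log2 differences over both genotypes, -5.40 for Trem2 and -6.12 for Tyrobp, are limited by the added 1 of the log2(value + 1) scale (limma adjusted p = 5.79e-10 and 1.4e-11). Mouse 17 of Tgfbr2ΔEC + PLX held the highest value with PLX for both genes.

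Cd68 (ENSMUSG00000018774, chromosome 11 of GRCm39, 69555037 to 69557067, minus strand) encodes a glycoprotein of the lysosomes of phagocytes. In choroid it was at 3724, 4419, 3572, 3664 and 4282 normalized counts in control – PLX and at 4162, 4102, 4631, 3795 and 3234 in Tgfbr2ΔEC – PLX mice. The values with PLX were 1271, 1946, 2049, 1309 and 1017 in controls and 1234, 1555, 1425, 895 and 1399 in Tgfbr2ΔEC mice. No choroid with PLX reached the lowest one without it, and the log2 difference was -1.42 ± 0.17 in controls and -1.63 ± 0.17 in Tgfbr2ΔEC mice (limma adjusted p = 1.06e-08 over both genotypes). In retina the range went from 48.0 to 165 without PLX to 7.15 to 30.7 with PLX, again without overlap. Unlike Trem2 and Tyrobp, Cd68 stayed above 3 reads in all 10 retinas with PLX. Its log2 difference in retina was -2.61 ± 0.39 in controls and -1.94 ± 0.39 in Tgfbr2ΔEC mice. The latter had an adjusted p of 0.0147, which rose over the threshold to 0.0700, 0.0545 or 0.0566 when mouse 6, 19 or 20 was left out (limma).

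Cst7 (ENSMUSG00000068129, chromosome 2 of GRCm39, 150412284 to 150420864, plus strand) encodes cystatin F, an inhibitor of lysosomal cathepsins, and was the lowest of the 8 genes. In choroid it was at 17.2, 30.05, 28.03, 19.3 and 24.7 normalized counts in control – PLX and at 24.6, 50.3, 38.6, 22.8 and 19.2 in Tgfbr2ΔEC – PLX mice. Under PLX it stood at 3.09, 11.05, 7.16, 14.5 and 5.48 in controls and at 3.44, 13.1, 0, 2.10 and 4.04 in Tgfbr2ΔEC mice, of which 2 were at or under 3 reads. The diets did not overlap. The log2 difference was -2.93 ± 0.53 in Tgfbr2ΔEC mice (limma adjusted p = 0.00141) and -1.55 ± 0.53 in controls, where the adjusted p was 0.138. With 5 in place of 1 added to each value, the adjusted p in controls was 0.0474. In retina Cst7 was at 0 to 7.78 without PLX, 5 of 10 retinas at or under 3 reads, and was listed at 0 in all 10 retinas with PLX. Its call there over both genotypes (limma adjusted p = 0.00303) rests on a few reads per library. By genotype it did not pass (adjusted p = 0.0848 in controls and 0.160 in Tgfbr2ΔEC mice), but it passed in controls without mouse 4 or 10 (0.0478 and 0.0187) and in Tgfbr2ΔEC mice without mouse 10 (0.0083).

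Spp1 (ENSMUSG00000029304, chromosome 5 of GRCm39, 104582165 to 104589235, plus strand) encodes osteopontin, a secreted matrix protein that binds integrins and CD44. In choroid it was at 66053, 45736, 49268, 54481 and 51738 normalized counts in control – PLX and at 78290, 50608, 79396, 34546 and 33436 in Tgfbr2ΔEC – PLX mice. With PLX it was at 19060, 22602, 18417, 14868 and 14476 in controls and at 15872, 15984, 14034, 13504 and 18344 in Tgfbr2ΔEC mice. Choroids of Tgfbr2ΔEC – PLX mice spread more widely than the other groups (SD 22583 against 7743 in control – PLX), but even the lowest lay above every choroid with PLX. The log2 difference was -1.59 ± 0.21 in controls and -1.74 ± 0.21 in Tgfbr2ΔEC mice (limma adjusted p = 5.61e-08 over both genotypes). Exons of Trem2, Gpnmb and Cd9 overlap gene models on the opposite strand. An unverified transcript, Gm42793, overlaps exons of Spp1 on the same strand, so reads of both could have been split by the authors' counting.

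In retina Spp1 was at 1101, 1641, 2046, 471 and 1054 in control – PLX and at 1350, 1624, 1061, 552 and 392 in Tgfbr2ΔEC – PLX mice. PLX-fed mice held 231 to 483 in controls and 287 to 398 in Tgfbr2ΔEC mice. The diets overlapped through mice 4 and 10, the lowest without PLX. Over both genotypes the log2 difference was -1.55 ± 0.25 (limma adjusted p = 0.000894), and 34.3% (23.8 to 49.4%) of the level was left, while the mean log2(value + 1) of the 17 MP markers was 1.85 in the same retinas. In controls alone the adjusted p was 0.0194, and it rose to between 0.0520 and 0.0770 when mouse 1, 2, 3, 12, 13 or 14 was left out. In Tgfbr2ΔEC mice it was 0.137 and fell to 0.0429 or 0.0179 without mouse 4 or 10 (limma).

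Lgals3 (ENSMUSG00000050335, chromosome 14 of GRCm39, 47605208 to 47623624, plus strand) encodes galectin-3, a lectin that is secreted and that also marks damaged lysosomes. In choroid it was at 5484, 8378, 5115, 6065 and 5676 normalized counts in control – PLX and at 5058, 7312, 7889, 5249 and 4574 in Tgfbr2ΔEC – PLX mice. The values with PLX were 3636, 5853, 4804, 4026 and 3668 in controls and 3544, 3729, 4166, 2730 and 3825 in Tgfbr2ΔEC mice. The diets overlapped in controls, through mouse 12 at 5853, and not in Tgfbr2ΔEC mice. The log2 difference was -0.72 ± 0.17 in Tgfbr2ΔEC mice (limma adjusted p = 0.0165, and 0.0552 or 0.0566 without mouse 8 or 19). In controls it was -0.48 ± 0.17 (adjusted p = 0.155, and 0.0488 without mouse 12), and over both genotypes -0.60 ± 0.12 (adjusted p = 0.00222). The 10 retinas on control food spanned 18.2 to 643 and the 10 on PLX 25.8 to 158, with a log2 difference of -0.57 (95% interval -1.63 to 0.48) that did not pass the test (limma adjusted p = 1.00). The highest retina, mouse 1 of control – PLX, also held the highest sum of 8 monocyte and recruited macrophage markers of all retinas (786, against 5.03 to 284 in the others). The part of these cells in the Lgals3 value was not tested.

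Gpnmb (ENSMUSG00000029816, chromosome 6 of GRCm39, 49013426 to 49047863, plus strand) was abundant in choroid and did not pass the test of PLX. It was at 40190, 42904, 35225, 35587 and 47829 normalized counts in control – PLX and at 36731, 50812, 50060, 37356 and 25221 in Tgfbr2ΔEC – PLX mice. Under PLX it stood at 39729, 33792, 62880, 32147 and 31643 in controls and at 30796, 34460, 39905, 36331 and 33985 in Tgfbr2ΔEC mice. The 4 groups overlapped, and the lowest and the highest choroid were mouse 10 without and mouse 13 with PLX. The log2 difference over both genotypes was -0.10 (95% interval -0.38 to 0.17, limma adjusted p = 0.749). Pigment-cell markers showed no fall with PLX either: 0 of 9 melanocyte and pigment genes and 0 of 8 genes of the retinal pigment epithelium (RPE) were called, with medians of 0.14 and 0.24. The sums of both lists overlapped between diets (156865 to 215698 without and 145642 to 222935 with PLX for pigment genes). Whether Gpnmb RNA came from pigment cells was not tested.

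In retina Gpnmb was at 535, 232, 294, 474 and 337 in control – PLX and 359, 317, 299, 524.5 and 273 in Tgfbr2ΔEC – PLX mice. With PLX it was at 95.6, 310, 166, 143 and 269 in controls and 84.9, 287, 344, 264 and 230 in Tgfbr2ΔEC mice. The groups overlapped, and the log2 difference of -0.82 (95% interval -1.33 to -0.31) had an unadjusted p of 0.00324 and an adjusted p of 0.202 in limma.

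Cd9 (ENSMUSG00000030342, chromosome 6 of GRCm39, 125437210 to 125471778, minus strand) encodes a tetraspanin, a membrane organizer, and spanned only 3933 to 5433 over all 20 choroids. It was at 4696, 4825, 4152, 4598 and 5068 normalized counts in control – PLX and at 4488, 4857, 4932, 4483 and 4535 in Tgfbr2ΔEC – PLX mice. PLX-fed mice held 4271, 5433, 4743, 4083 and 4077 in controls and 4274, 4377, 4227, 3933 and 4703 in Tgfbr2ΔEC mice. The groups overlapped, and the log2 difference was -0.08 (95% interval -0.20 to 0.04, limma adjusted p = 0.470), so a fall by more than 0.20 on the log2 scale lay outside the interval. In retina Cd9 was at 811 to 1564 without and 775 to 1627 with PLX (log2 difference -0.19, 95% interval -0.48 to 0.10, adjusted p = 1.00).

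**Figure D1:**
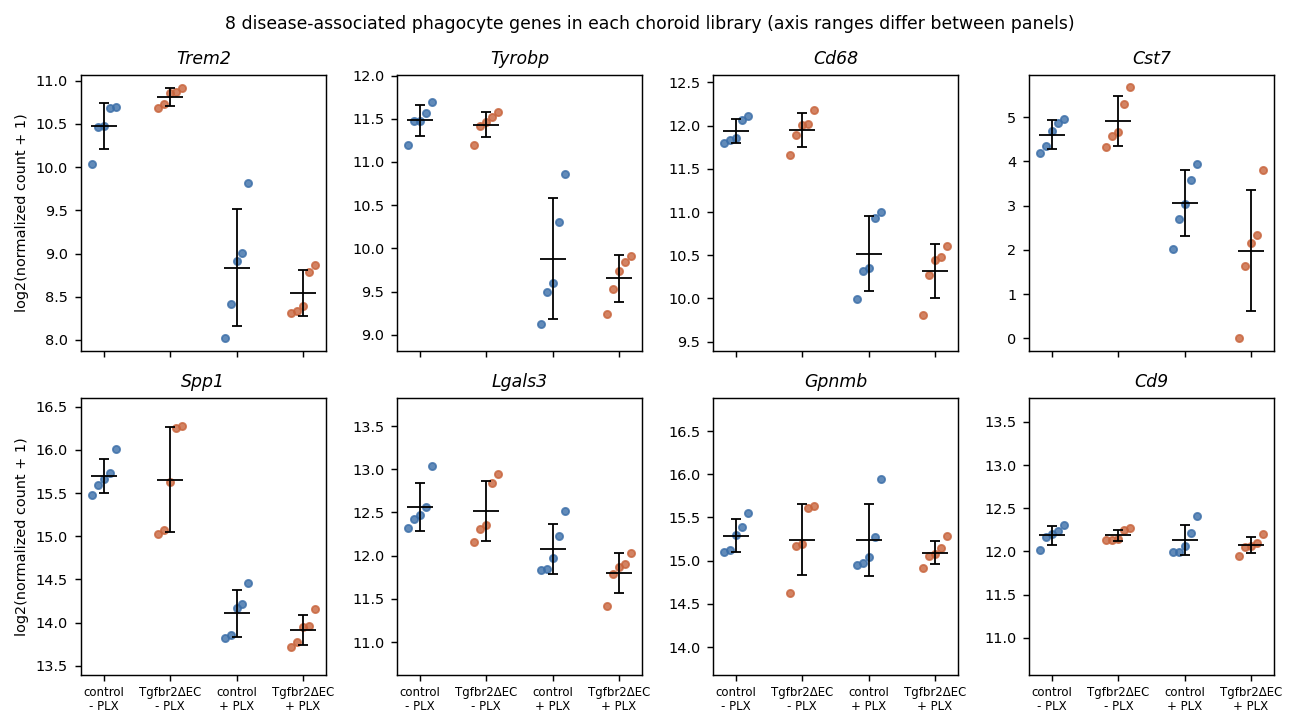
Level of each of the 8 genes in the 20 choroid libraries, as log2(normalized count + 1), by genotype and diet; each point is a mouse, the bar is the mean and the whiskers are 1 SD (n = 5), and axis ranges differ between panels. Trem2, Tyrobp, Cd68, Cst7 and Spp1 separate the diets without overlap, while Gpnmb and Cd9 overlap in all groups.

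**Figure D2:**
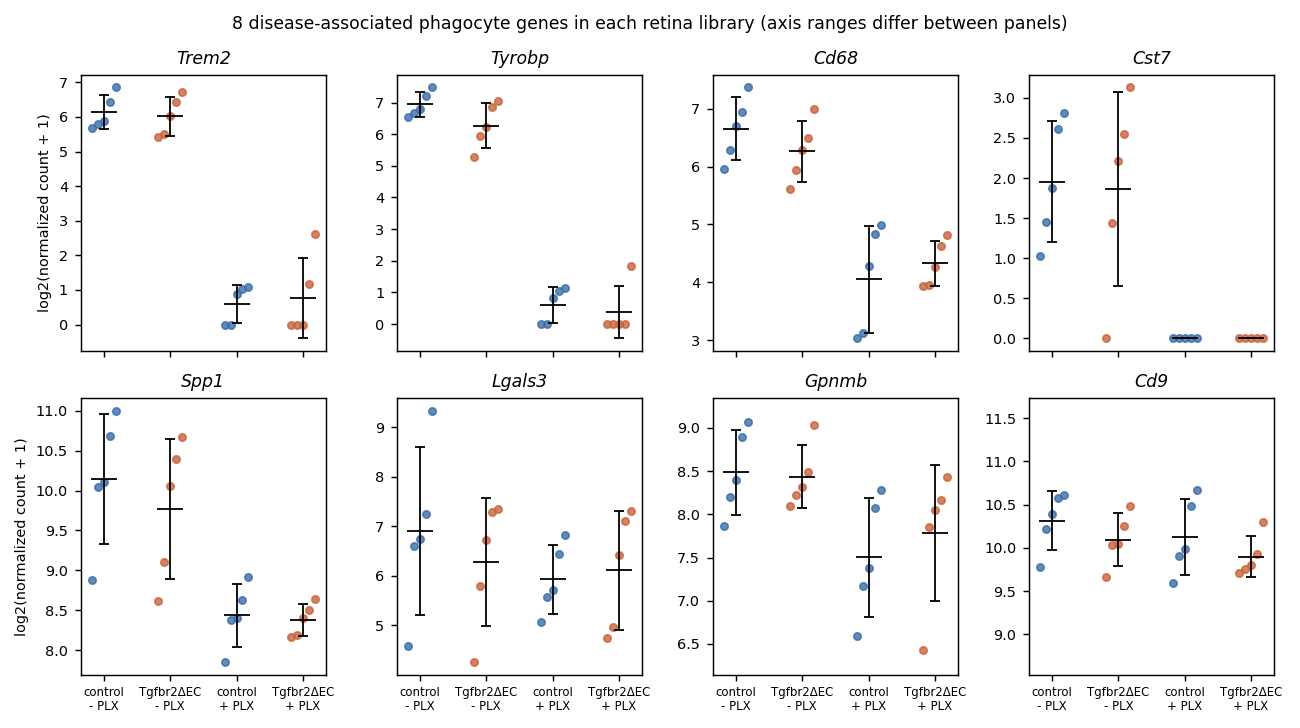
The same plot for the 20 retina libraries. Trem2 and Tyrobp lie near 0 with PLX, Cst7 is listed at 0 in all 10 retinas with PLX, and Lgals3, Gpnmb and Cd9 overlap between diets.

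Counted by comparison, limma called 4 of the 8 genes lower with PLX in control choroids (3.15% of all 23619 tested genes were called lower), 6 in Tgfbr2ΔEC choroids (3.5%) and 6 over both genotypes (5.06%). In retina it called 4 in controls (0.727% of 23243 genes), 3 in Tgfbr2ΔEC mice (0.512%) and 5 over both genotypes (1.08%). In Tgfbr2ΔEC choroids, neural RNA moved with the diet as well: the neural retina sums with and without PLX did not overlap, and the median log2 difference was -2.15 for 10 neural retina markers (1 called lower, Rom1) and -2.12 for 8 ganglion cell markers (1 called lower, Pou4f1), against -1.68 for the 8 genes. With a neural retina score as a covariate, the 6 genes called in Tgfbr2ΔEC choroids passed too, with Lgals3 at -0.82 (limma adjusted p = 0.036). None of the 8 was called higher. The median log2 difference of the 8 genes over both genotypes was -1.59 in choroid and -1.73 in retina. In choroid 5 of the 8 had all 10 values with PLX below all 10 without, as did 1.75% of all tested genes, and in retina 3 did (0.422%). Cst7 and Lgals3 were called in Tgfbr2ΔEC and not in control choroids, but the difference of their PLX effect between genotypes did not pass the test. This interaction was -1.38 (95% interval -2.94 to 0.17) for Cst7 and -0.24 (-0.74 to 0.26) for Lgals3 (limma adjusted p = 0.824 and 0.990).

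Genotype effects were tested in each diet to ask whether loss of endothelial TGFβ signaling changed these genes. In choroid – PLX the log2 differences between Tgfbr2ΔEC and control ran from -0.05 to 0.34, and in choroid + PLX from -1.07 to -0.06. In retina they ran from -0.67 to -0.05 without and from -0.23 to 0.28 with PLX. None of the 8 was past the threshold, and 0 of the 8 had an unadjusted p under 0.05 in limma in any of these comparisons. Of all tested genes, 1 of 23619 was called higher and 0 lower in choroid in each diet, and 0 of 23243 were called in retina. An unadjusted p under 0.05 was held by 2184 and 889 choroid genes without and with PLX, and by 758 and 629 retina genes. The absence of calls is thus not particular to the 8 genes. Trem2 in choroid – PLX had the largest difference there, 0.34 (95% interval -0.14 to 0.81, limma adjusted p = 0.749). The exact permutation test of its 5 against 5 mice alone gave p = 0.0238, with 2 of 5 control values (1656 and 1649) above the lowest Tgfbr2ΔEC value (1641), and it is 1 of 32 such tests over the 8 genes. The interaction of genotype and diet was not past the threshold for any of the 8 genes, or for any other tested gene, in either tissue. Its widest interval among the 8 was -1.31 to 2.91, for Lgals3 in retina.

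**Figure D3:**
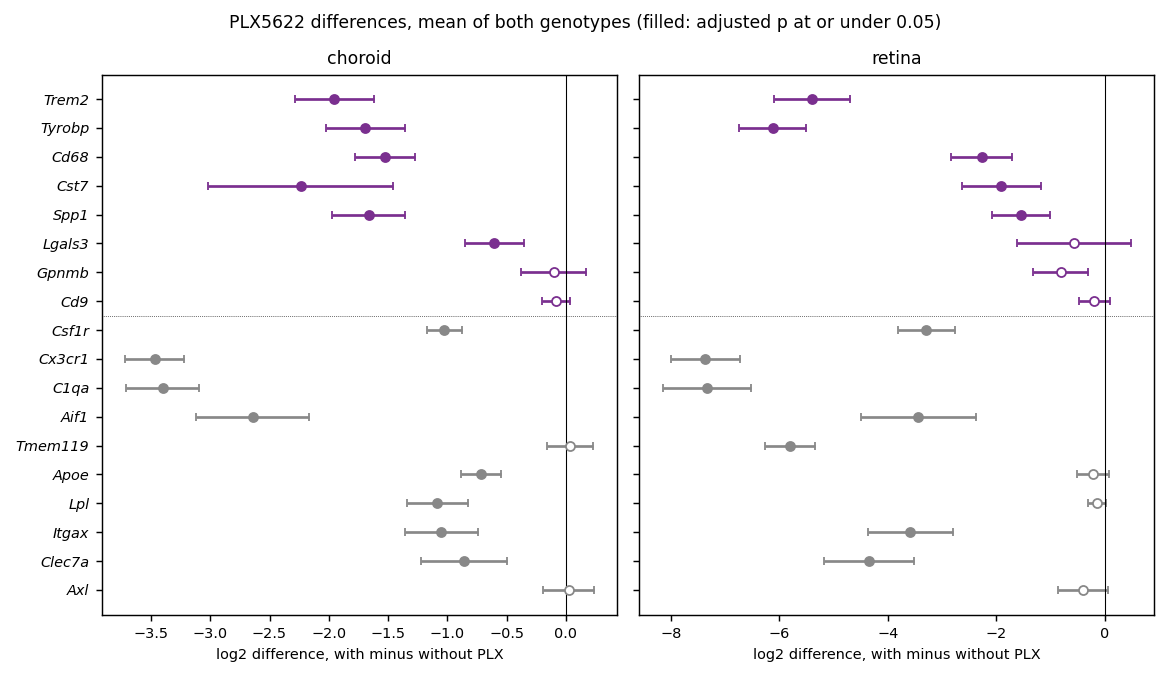
Log2 difference between mice with and without PLX, averaged over both genotypes, with 95% intervals from limma, for the 8 genes (purple) and 10 other phagocyte genes (grey) in choroid and retina; filled points are past the threshold and the 2 axes have different ranges. In choroid Gpnmb, Cd9, Tmem119 and Axl have intervals that include 0, and in retina Trem2 and Tyrobp lie beyond -5.

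To place the 8 genes against the loss of phagocyte RNA, each was set against the mean log2 level of the 17 MP markers in the same library. The marker mean fell by 2.40 in choroid on the log2 scale. Relative to it, Gpnmb and Cd9 were higher with PLX by 2.30 and 2.32, Lgals3 by 1.80, Cd68 by 0.88, Spp1 by 0.74, Tyrobp by 0.71 and Trem2 by 0.45. The exact permutation p was 3.15e-05 for Gpnmb, Cd9, Lgals3, Cd68 and Tyrobp, 0.000504 for Spp1 and 0.00381 for Trem2. The markers were chosen as genes of cells that PLX depletes, so a gene that PLX leaves unchanged comes out higher at a small p. For Gpnmb and Cd9 the p-value therefore restates the fall of the markers. Cst7 differed by 0.16 (exact permutation p = 0.698), but with 5 in place of 1 added it was higher by 0.78 (exact permutation p = 0.00312). None of these p-values is adjusted. The order depends on the marker, because the markers themselves ranged from a log2 difference of -5.10 (Fcrls) to 0.03 (Tmem119). Against Csf1r alone, which fell by 1.03, Trem2 (-0.93), Tyrobp (-0.67), Cd68 (-0.50), Cst7 (-1.21) and Spp1 (-0.64) were lower with PLX, and Lgals3 (0.42), Gpnmb (0.92) and Cd9 (0.94) stayed higher. Gpnmb, Cd9 and Lgals3 were thus the 3 genes that were higher with PLX in choroid relative to every reference tried, including the markers without Tmem119. Of these, Lgals3 itself fell with PLX (-0.60, limma adjusted p = 0.00222), only less than the references, while Gpnmb and Cd9 did not pass.

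In retina the marker mean fell by 5.40 on the log2 scale, to 1.85. Relative to it Cd9 (5.21), Lgals3 (4.82), Gpnmb (4.58), Spp1 (3.85), Cst7 (3.49) and Cd68 (3.13) were higher with PLX (exact permutation p = 3.15e-05 each), the difference for Trem2 was 0.0016 (exact permutation p = 0.995) and Tyrobp was lower (-0.73, exact permutation p = 0.00139). Because Cst7, Trem2 and Tyrobp were at the floor with PLX there, their differences depend on the added 1. Cst7, listed at 0 in all 10 retinas with PLX, came out higher only because the markers fell further on this scale. With 5 added, Tyrobp no longer passed (-0.20, exact permutation p = 0.0913) and Trem2 was higher by 0.38 (exact permutation p = 0.0017). Against Csf1r alone the values were 3.10 for Cd9, 2.72 for Lgals3, 2.47 for Gpnmb, 1.75 for Spp1, 1.38 for Cst7, 1.02 for Cd68, -2.11 for Trem2 and -2.83 for Tyrobp. For Cd9, Lgals3 and Gpnmb, which did not pass the test of PLX in retina, the p-values against the markers restate the fall of the markers.

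**Figure D4:**
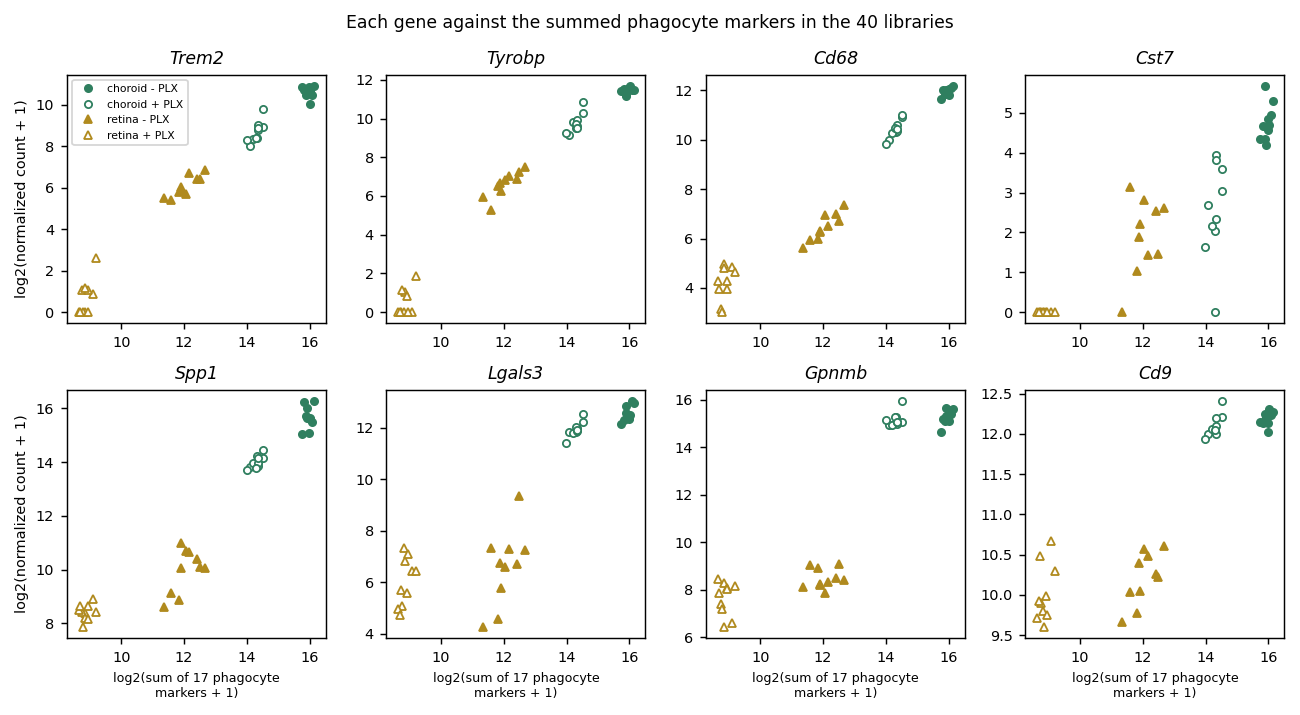
Level of each gene against the summed level of 17 MP markers in the 40 libraries, both as log2(value + 1); circles are choroids, triangles retinas, filled without and open with PLX. Trem2, Tyrobp and Cd68 are lower with PLX in both tissues, whereas Cd9, Gpnmb and Lgals3 overlap between diets in both tissues.

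Between tissues, all 8 genes were higher in choroid than in retina, both without and with PLX, as were 37.7% of the 24317 genes tested over the 40 libraries in each diet. Without PLX, the mean in retina was 0.907% of that in choroid for Gpnmb, 2.08% for Spp1, 2.35% for Cd68, 2.49% for Lgals3, 3.72% for Tyrobp and 4.35% for Trem2, and it was 12.6% for Cst7 and 25.9% for Cd9. Without mouse 1, Lgals3 was at 1.58%. For comparison the 9 pigment genes ranged from 0.116% to 41.2%, the highest being Trpm1, which retinal bipolar cells express too, and the 8 RPE genes from 1.27% to 22.5%. The part of choroid or RPE carried into the retinas in these values was not tested. The PLX effect differed between tissues for 2 of the 8 genes, which were further apart with PLX (0.543% of all genes were called in this direction). These were Trem2 (log2 interaction 3.44 ± 0.37) and Tyrobp (4.43 ± 0.33). Cd68 (0.75, 95% interval 0.144 to 1.356, limma adjusted p = 0.317) and Gpnmb (0.72, 0.13 to 1.30, adjusted p = 0.330) did not pass. Spp1 was at 2.08% in retina without and 2.07% with PLX, and its interaction was -0.12 (-0.74 to 0.51). With the mouse as a block, which pairs the tissues of a mouse, 8, 8 and 2 genes were called in these comparisons.

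To compare levels between genes, each mean was divided by the length of the gene's canonical transcript. In control – PLX choroids, the level per kilobase was highest for Spp1 (23982 normalized counts per kilobase) and Gpnmb (10551), followed by Tyrobp (4737), Lgals3 (4462), Cd9 (3673), Cd68 (3282), Trem2 (1323) and Cst7 (23.01). From Tyrobp to Cd68, the SD of each gene overlapped that of the next. In control + PLX choroids Gpnmb (10470) and Spp1 (8024) came first, with overlapping SD, then Cd9 (3557) and Lgals3 (3193), and Trem2 was at 459. In control – PLX retinas the order was led by Cd9 (1024) and Spp1 (567), which overlapped, and Gpnmb, next to Spp1 in choroid, was at 97.9. Lgals3 (148) lay between it and Tyrobp (208), overlapping each within 1 SD, and was at 68.4 without mouse 1.

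The promoters of genes that fell and genes that stayed are shown to let their letters be compared. RefSeq promoter windows (GRCm38.p6) were found for 7 of the 8 genes, all but Tyrobp. The stretch from 250 bases upstream to the base before the start is printed on the gene's strand for Cd68 (chr11:69666171-69666420, minus strand) and the first start of Spp1 (chr5:104434861-104435110, plus strand), which fell, and for Gpnmb (chr6:49036268-49036517, plus strand) and Cd9 (chr6:125494761-125495010, minus strand), which stayed. Capitals mark matches on either strand to AGGAAGT (an Ets factor core, the class of PU.1), TGANTCA (AP-1), CATGTG (an E-box of the MITF kind) or CACGTG (the core of the lysosomal CLEAR element).
Cd68: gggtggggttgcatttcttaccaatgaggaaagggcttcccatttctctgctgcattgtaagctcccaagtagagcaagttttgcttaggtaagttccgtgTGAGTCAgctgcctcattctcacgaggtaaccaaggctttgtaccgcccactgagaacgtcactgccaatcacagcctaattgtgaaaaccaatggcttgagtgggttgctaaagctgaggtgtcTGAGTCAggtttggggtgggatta
Spp1: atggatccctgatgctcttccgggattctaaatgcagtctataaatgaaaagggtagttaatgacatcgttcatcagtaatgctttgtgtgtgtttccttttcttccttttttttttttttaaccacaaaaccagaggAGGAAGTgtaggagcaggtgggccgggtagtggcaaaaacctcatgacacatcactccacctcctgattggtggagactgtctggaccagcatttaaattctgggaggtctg
Gpnmb: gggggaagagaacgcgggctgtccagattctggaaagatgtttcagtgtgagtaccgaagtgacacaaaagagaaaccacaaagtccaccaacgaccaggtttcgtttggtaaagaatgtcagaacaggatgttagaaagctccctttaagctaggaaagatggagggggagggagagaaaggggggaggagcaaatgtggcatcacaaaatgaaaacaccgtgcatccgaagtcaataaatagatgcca
Cd9: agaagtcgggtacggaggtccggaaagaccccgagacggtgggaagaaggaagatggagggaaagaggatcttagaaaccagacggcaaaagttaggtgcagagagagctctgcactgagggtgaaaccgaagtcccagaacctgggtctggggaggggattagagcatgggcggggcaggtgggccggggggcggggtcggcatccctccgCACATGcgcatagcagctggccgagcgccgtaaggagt
Cd68 held TGANTCA 2 times, at 149 to 143 and at 24 to 18 bases before the start, and Spp1 held AGGAAGT at 112 to 106. Gpnmb held none of the 4 motifs and Cd9 held CATGTG, as its reverse complement CACATG, at 38 to 33. Among the others, Trem2 held TGANTCA at 9 to 3 and Cst7 held AGGAAGT at 63 to 57, and the second start of Spp1 and Lgals3 held none. Of all 32851 windows, 7.69% held AGGAAGT, 6.75% TGANTCA, 12.3% CATGTG and 6.02% CACGTG. The motifs do not overlap each other in these windows. A match of letters is a description and no binding was measured.

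Other genes of the pathway were counted over both genotypes. Of all tested genes, 5.06% were called lower with PLX in choroid and 1.08% in retina, and 2.07% were called higher in choroid. Of 14 partners of TREM2 signaling, 12 fell with PLX in choroid (median -1.17), led by Lcp2 (-2.08), an adapter of SYK signaling, and Vav1 (-1.85). Grb2 (-0.26) and Adam10 (-0.13), both used by many cell types, did not pass. In retina 6 of 14 fell, led by Vav1 (-4.50) and Btk (-3.43), a kinase of the same pathway. Of the 5 other Trem genes, 3 fell in choroid, Treml2 (-1.40), Trem1 (-1.06) and Treml4 (-1.0), and Trem3 (-0.72) did not pass. In retina 3 of these 5 were tested and Treml2 fell (-2.87).

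Of 24 further genes of disease-associated microglia, 15 fell and 1 rose in choroid (median -0.71). The chemokines Ccl4 (-2.66) and Ccl3 (-2.45) were lowest, and Ank (0.22, adjusted p = 0.0385 in limma), a pyrophosphate transporter, and Timp2 (0.15, not past the threshold), an inhibitor of metalloproteinases, were highest. Without PLX, the mean of Apoe, the main lipid carrier of the retina and brain, was 91936 normalized counts and that of Lpl, a lipase, 3556. For Itgax, an integrin, it was 955 and for Clec7a, a glucan receptor, 1082. By their log2 differences, Apoe fell to 60.8%, Lpl to 47.2%, Itgax to 48.3% and Clec7a to 55.2%. Axl, a receptor for apoptotic cells, was at 9478 without and 9677 with PLX and did not pass. In retina 7 of 24 fell (median -0.31), led by lysozyme, Lyz2 (-4.68), and the chemokine Ccl6 (-4.51), and Itgax (-3.59) and Clec7a (-4.35) fell too, while Apoe (-0.22), Lpl (-0.15) and Axl (-0.40) did not pass.

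Of 17 lysosome and phagosome genes, 9 fell in choroid (median -0.39). Tfec (-1.41), a relative of MITF, and Acp5 (-0.87), an acid phosphatase, were lowest and Tfeb (0.18) and Mitf (0.18), regulators of lysosomal and pigment genes, did not pass. In retina 1 of 15 tested fell, Gusb (-0.49). Receptors of osteopontin and galectin-3 fell in 2 of 10 in choroid (median -0.11), among them Itga4 (-0.68), and in 0 of 10 in retina by limma, where 2, Itgb3 and Itgb1, had an unadjusted p under 0.05. Cd44 (-0.39) did not pass in choroid. Of 8 other tetraspanins, the leukocyte members Cd53 (-1.83) and Cd37 (-1.53) fell in choroid, and the remaining 6, Cd151 (0.07) and Tspan3 (0.11) at the upper end, did not pass, like Cd9 (median of the 8 0.04). In retina Cd53 fell (-4.38) and the other 7 did not pass.

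Markers of other cells were counted in choroid over both genotypes. Of those tested, 1 of 6 neutrophil, 3 of 6 dendritic cell, 1 of 7 lymphocyte and 1 of 7 Mueller glia markers fell (5.06% of all tested genes did). In the other direction 1 of 6 mast cell, 2 of 7 Schwann cell, 4 of 8 endothelial, 1 of 6 fibroblast and 1 of 8 ganglion cell markers rose (2.07% of all tested genes did), and 0 of 10 neural retina markers passed in either direction (median -1.07). This last median joins unlike genotypes, 0.02 in control and -2.15 in Tgfbr2ΔEC choroids. In retina 3 of 8 perivascular, 2 of 8 monocyte and 1 of 4 neutrophil markers fell (1.08% of all tested genes did). Their part in the values of the 8 genes was not tested.

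**Figure D5:**
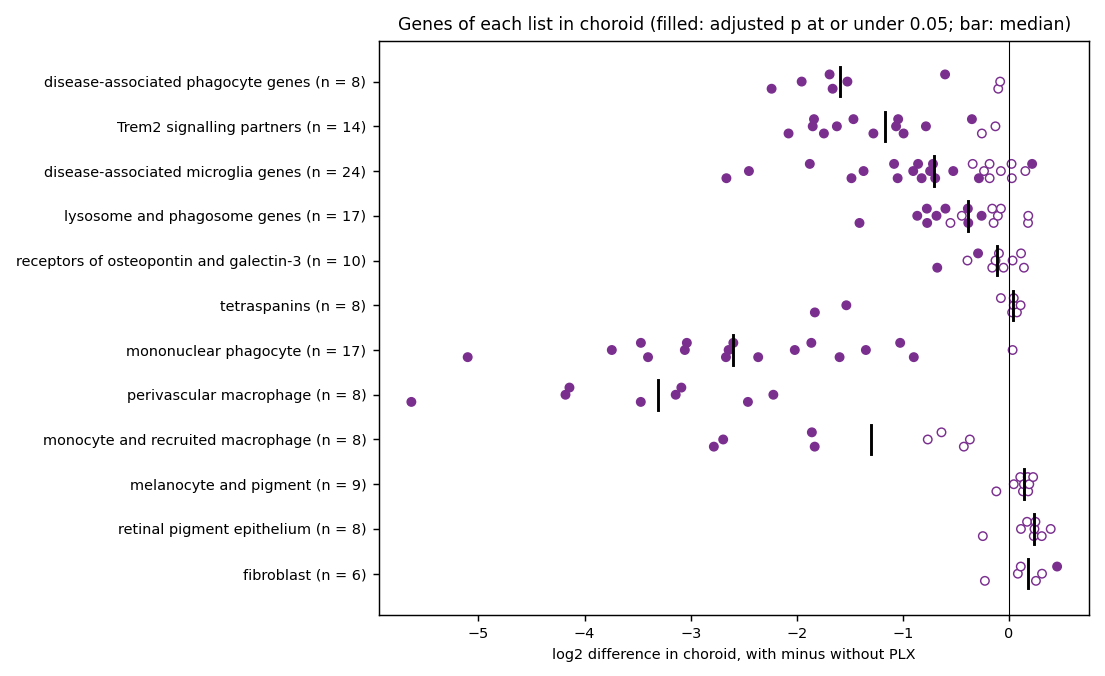
Log2 difference with PLX in choroid for each gene of 12 lists; filled points are past the threshold, the bar is the median of a list and n its number of tested genes. The lowest of the 8 genes, Cst7 (-2.24), lies above the medians of the mononuclear phagocyte and perivascular macrophage lists. Gpnmb and Cd9 lie near 0, as do the pigment, RPE and fibroblast lists.

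Genes of which the level varied most like a member were taken by the Pearson r over the 20 libraries of a tissue after group means were removed, among 17597 genes in choroid and 17180 in retina. Libraries share their depth and dissection, and r is given as a description. In choroid Tyrobp was most like Lyz2 (0.954), Cd300c2 (0.935) and Tmsb4x (0.922), and Trem2 most like Ciao2a (0.882), Lamp1 (0.879) and Hexa (0.873). For Cd68 they were Oma1 (0.912), Cd53 (0.890) and Laptm5 (0.879), and for Cd9 Cd63 (0.902), Glmp (0.894) and Hexa (0.893). Spp1 was most like Akirin1 (0.865), Il1r2 (0.859) and Fam20c (0.838), Lgals3 most like Znhit1 (0.880), Nop10 (0.847) and Copz1 (0.837), Gpnmb most like Sfrp1 (0.843), Tmem123 (0.842) and Tnfrsf10b (0.838), and Cst7 most like 1700010I14Rik (0.787), Ifi204 (0.781) and Xpnpep1 (0.776). Between members in choroid, the highest r were 0.787 for Trem2 with Cd9 and 0.786 for Tyrobp with Cd68.

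In retina Trem2 and Tyrobp were both most like, among others, Mpeg1 (0.805 and 0.791), which encodes perforin-2. Trem2 was also close to Myh9 (0.820) and Slc39a7 (0.805), Tyrobp to Slfn2 (0.789) and Myo1f (0.779), and Cd68 to Vav1 (0.827), Echdc3 (0.805) and Cd14 (0.787). Cd9 was closest to Pdpn (0.973), H2-Q4 (0.948) and Crym (0.941) and Spp1 to Tcerg1l (0.897), Gm28900 (0.894) and Hmox1 (0.880). Gpnmb was closest to Pcnx1 (0.897), Synj2bp (0.863) and Cdh6 (0.847), and Lgals3 to Tent5b (0.819), Pdlim2 (0.807) and Aqp5 (0.797).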

How the data were processed

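RNA of choroid and retina of 20 mice was measured in 40 libraries. The authors quantified single reads with salmon 1.10.1 against GRCm39 (quality checked with FastQC 0.11.5), then applied tximport and the size factors of DESeq2 1.36.0. The deposited values are this signal per gene (normalized counts), which are not whole numbers. Between 46.0% and 72.4% of low values lay within 0.1 of a whole read, so no count test was run. The study states that it analysed choroid and retina separately, but the deposited table is scaled over both: the median ratio of a library to the geometric mean of all 40 was 1.008 in every library, while within a tissue it ranged from 0.983 to 1.036. Comparisons between tissues rest on this scaling.

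Groups came from the labels, which give no batch. limma 3.58.1 (R 4.3.3) with a mean-variance trend was run on log2(value + 1) on the 23619 choroid and 23243 retina genes whose mean reached 1, with one fit per tissue (threshold: Benjamini-Hochberg adjusted p of 0.05). Tissues were compared in a fit of 40 libraries, with the mouse as a block as an alternative. Same-numbered choroid and retina came from 1 mouse; the correlation of their deviations ranged from -0.158 to 0.289 (median 0.126). Groups within a tissue shared no mouse, so no pairing was used there. For single genes, two-sided exact permutation tests of 5 mice against 5 were used (smallest p 0.0079). The limma fit was tried on simulated counts in which only genes of higher counts were changed. These did not cover counts as low as those of Cst7, or neural RNA that varies between libraries. Mouse sex and neuronal share, covariates of the authors, were tried as scores. P-values measure the spread between mice.

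Symbols and positions came from GENCODE release M39 of GRCm39 and promoters from RefSeq. The members and gene lists were chosen with earlier results of these data known. The genes named are the 8, Csf1r, Cx3cr1, Tmem119, C1qa, Aif1, Apoe, Lpl, Itgax, Clec7a, Axl and Tgfbr2, the 2 lowest and 2 highest differences of lists and the 3 genes most like a member (mean of at least 10). Ccr2, Cd44, Itgb1 and Adgre1 were added after the values were seen. Python 3.11.15, numpy 2.4.6 and pandas 2.3.3 were used.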

Additional observations from a re-analysis of the deposited data

Results flagged for a closer look

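Of 62 groups of 5 libraries examined for the 8 genes, 4 held a library whose gap to its nearest neighbour was over 0.71 of the range of the group, where chance gives about 1 in 20. Lgals3 in retina of mouse 1 (control – PLX) was at 643 normalized counts, with a gap of 0.793 of the range. Gpnmb in choroid of mouse 13 (control + PLX) was at 62880, with a gap of 0.741. In retina of mouse 17 (Tgfbr2ΔEC + PLX), Trem2 was at 5.18 (gap 0.759) and Tyrobp at 2.60 (gap 1.0, the other 4 being listed at 0), both within a few reads.

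The PLX effect differed between tissues, by the interaction term in limma, for Trem2 (log2 difference 3.44) and Tyrobp (4.43). Both fell further in retina, where they reached the floor.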

How the results depend on the processing

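The number of the 8 genes past the threshold was recomputed under other pseudocounts (0.5 and 5), other minimum means (any value above 0, and 10), other scalings, a robust variance, sex and neural retina scores, the compared groups alone and without each mouse in turn. Leaving out 1 mouse gave 4 to 5 genes in control choroids (4 with all), 5 to 6 in Tgfbr2ΔEC choroids (6), 3 to 5 in control retinas (4) and 2 to 5 in Tgfbr2ΔEC retinas (3, and 5 without mouse 10), and changed no count over both genotypes, by genotype, by tissue or for the interactions. With a minimum mean of 10, Cst7 was not tested in retina and over both tissues, leaving 4 and 7 genes. With pseudocount 5 Cst7 passed in control choroids (adjusted p = 0.0474) and with pseudocount 0.5 in control retinas (adjusted p = 0.0480 in limma). Setting the mouse as a replicate block gave 8 and 8 genes for tissue and 2 for tissue by diet and changed no call.

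Set against Csf1r alone, the value was below 0 in choroid for Trem2 (-0.93), Tyrobp (-0.67), Cd68 (-0.50), Cst7 (-1.21) and Spp1 (-0.64), and in retina for Trem2 (-2.11) and, as against the 17 markers, Tyrobp (-2.83). Of these, Cst7 (0.16) and Trem2 in retina (0.0016) had not passed the test against the 17 markers. Csf1r fell less than most other markers. Against the markers without Tmem119, an alternative chosen after seeing the data, 7 of the 8 genes passed in each tissue; those in retina include Tyrobp, which was lower (-0.75), and Cst7, which was at 0 with PLX. With pseudocount 5, 8 passed in choroid, and in retina Trem2 (0.38) passed and Tyrobp (-0.20) did not. Of 3844 recomputed values, 112 that were not called changed sign. Low counts limit Cst7 in both tissues and Trem2 and Tyrobp in retinas with PLX, and 5 mice a group leave genotype intervals wide.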
